A study of Mus musculus with 9 samples.

Results

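The genes described here are those that were on in *KD1* and off in both *WT* and *KD2*. Level was measured as CPM, a gene's reads per 1000000 counted reads of its culture. A gene was a member when it stood above 1 CPM in all 3 *KD1* cultures and its mean was under 0.2 CPM in *WT* and in *KD2*. Of 55228 genes in the table, 54 met these limits, which is 0.452% of the 11939 genes above 1 CPM in every *KD1* culture. Because the limits used the counts of all 9 cultures, the levels and fold changes of the members are given as a description and carry no test.

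The study sequenced RNA from undifferentiated HC11 cells, a BALB/c mouse mammary epithelial line, with 3 cultures each of *WT*, *KD1* and *KD2*. *WT* is the parent line. *KD1* and *KD2* were made by CRISPR/Cas9 with single guides and a repair template that brings in stop codons, directed at *Vangl2*, which encodes a planar cell polarity protein, and each line was grown from a single colony, so that each is 1 clone. All cultures were kept in medium with 10% fetal bovine serum, 5 µg/mL insulin and 10 ng/mL epidermal growth factor and were taken near confluence, without lactogenic hormones. The sample labels use the word knockout for both lines. No clone that had gone through the same selection without losing *Vangl2* was analysed here, so the loss of *Vangl2* and the history of a clone cannot be told apart.

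A cell keeps most tissue-specific genes silent, and genes of a family that arose by tandem duplication often sit side by side and are read together in the tissue that uses them. Mammary epithelial cells make keratins and adhesion proteins and, after lactogenic hormones, milk proteins. Several gene families met below are known instead from skin (small proline-rich proteins, the interleukin-36 cytokines), from the rodent placenta (the prolactin-related hormones) or from blood cells (the leukocyte immunoglobulin-like receptors).

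The libraries held between 19231428 and 28360592 counts. *Vangl2* itself was read at 2.69, 1.81 and 2.70 CPM in *KD1* cultures 1, 2 and 3, at 3.29 to 4.11 CPM in *WT* and at 3.81 to 4.68 CPM in *KD2*. Its RNA level therefore did not set *KD2* below *WT*. An edit of the coding sequence need not lower the RNA, so that the label of *KD2* is not checked by the RNA. At the protein level, the study's immunoblots showed almost no VANGL2 in *KD1* and a strongly reduced amount in *KD2*. The cultures read as epithelium, with *Krt5* at a mean of 2070 CPM in *WT*, 2088 in *KD1* and 1148 in *KD2* and *Epcam* at 539, 659 and 452 CPM. Of 8 luminal markers, 7 stood above 1 CPM in each line, and *Krt19* had no count. Of 5 basal markers, 4, 4 and 5 did in *WT*, *KD1* and *KD2*, with *Acta2* at 0.162, 0.300 and 1.63 CPM. The luminal marker *Cldn4* stood at 21.5, 612 and 20.1 CPM. Summed over 9 leukocyte markers, *WT* cultures held 3.06 to 5.89 CPM, *KD1* cultures 7.05 to 8.33 and *KD2* cultures 5.17 to 6.50, most of it *Cd68*. Several defining leukocyte markers were at or near 0 in *KD1*, with 0, 0 and 1 count of *Ptprc*, 3, 1 and 0 counts of *Cd3e*, and no count of *Adgre1*. The myeloid marker *Csf1r* was low in every line but higher in *KD1*, with 13, 6 and 7 counts there, 1, 2 and 2 in *WT* and 2, 3 and 0 in *KD2*, and its part in the levels of the members was not tested. In such bulk libraries, few cells with much RNA of a gene and many cells with little of it cannot be told apart.

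Summed over the 54 members, the *KD1* cultures held 320, 303 and 325 CPM. The *WT* cultures held 3.54, 3.88 and 3.44 CPM, and the *KD2* cultures 3.64, 3.60 and 3.33 CPM. *Lilr4b* alone gave 24.5% of the *KD1* sum, and the 6 highest members together gave 49.98%. Most members were low: the median of their *KD1* means was 3.11 CPM, 16 stood above 5 CPM and 20 stood under 2 CPM. Among the 12180 genes with a *KD1* mean above 1 CPM the median was 36.3 CPM, and 53 of the 54 members lay under it. Off did not mean empty in every case. Of the members, 9 had no count in any *WT* culture, 11 had none in any *KD2* culture and 5 had none in either line, namely *Il1f9*, *Otol1*, *Gm6637*, *Bcl2l14* and *Gm48874*. The highest value of any member in a single *WT* or *KD2* culture was 0.314 CPM, for *Foxa1*, and the lowest in a single *KD1* culture was 1.02 CPM, for *Ifi209*.

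**Figure D1:**
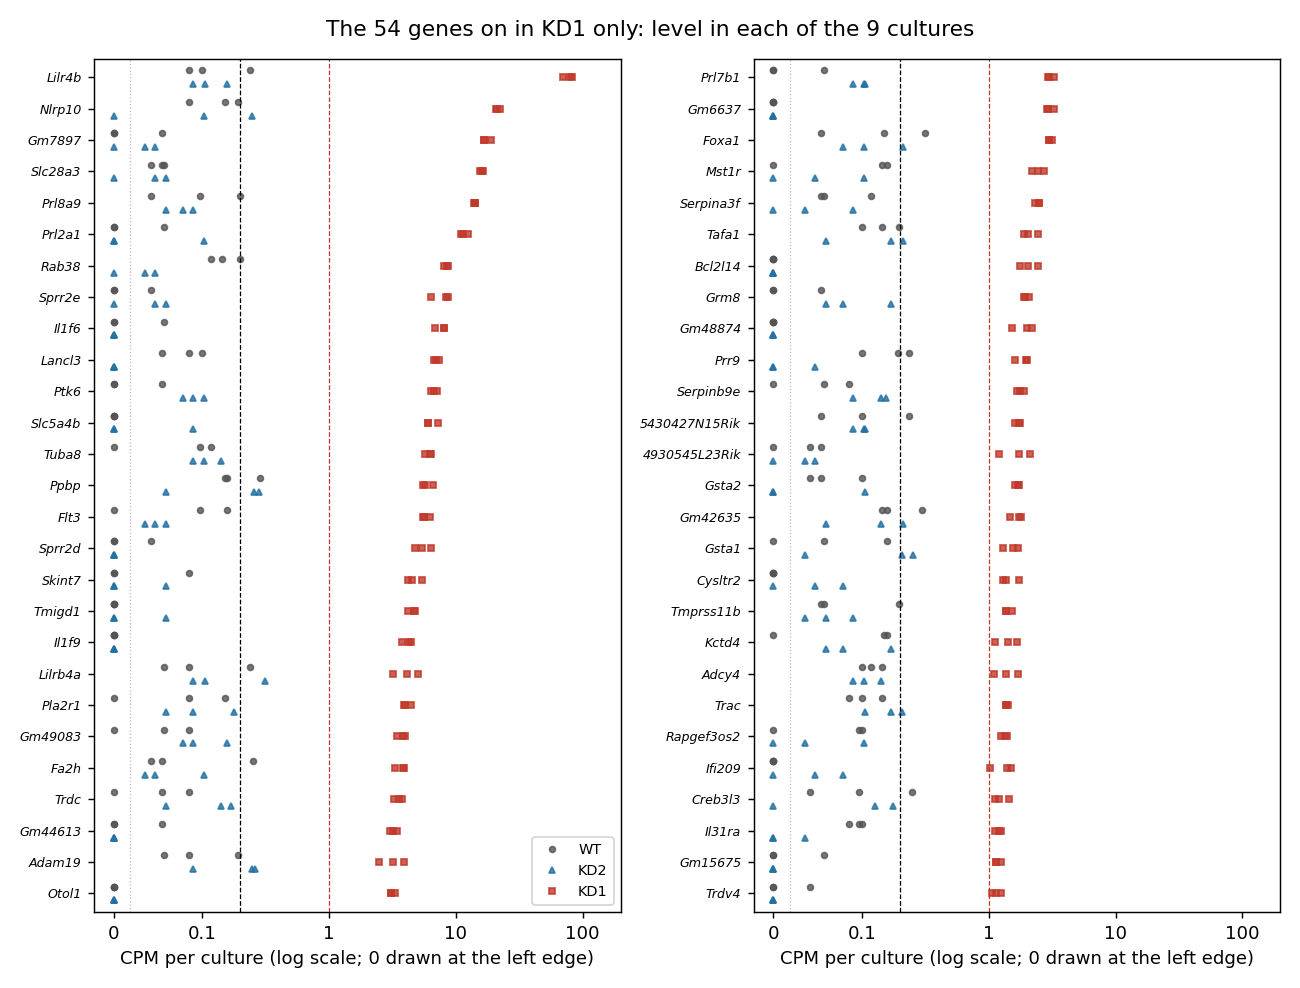
Level of each of the 54 members in CPM on a log scale, ordered by their mean in *KD1*, with a square for each *KD1* culture, a circle for each *WT* culture and a triangle for each *KD2* culture; the dashed lines mark the limits of 0.2 and 1 CPM and values of 0 are drawn at the left edge. The *KD1* squares of all members lie to the right of the 1 CPM line by the rule itself, and *Lilr4b* stands apart at a mean of 77.4 CPM.

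*Lilr4b* and *Lilrb4a* encode paired immunoglobulin-domain receptors of myeloid and mast cells, and *Lilrb4a* carries inhibitory motifs in its tail. *Lilr4b* stood at 82.9, 70.5 and 78.8 CPM in *KD1*, at 0.0998, 0.0784 and 0.239 CPM in *WT* and at 0.0847, 0.106 and 0.156 CPM in *KD2*. Its summed counts, divided by the summed library totals of each line, were 572-fold higher in *KD1* than in *WT* (95% exact counting interval 301 to 1252) and 689-fold higher than in *KD2* (350 to 1597), where such an interval covers counting error and not the spread between cultures. *Lilrb4a* stood at 4.122, 3.202 and 5.017 CPM in *KD1* and at no more than 0.312 CPM in any culture of the other lines. The genes lie 4.25 kb apart on chromosome 10 (GRCm38), *Lilr4b* from 51480632 to 51486703 and *Lilrb4a* from 51490956 to 51496611. Of the 50-base windows in its exons, *Lilr4b* shared 24.5% with other genes, most often *Lilrb4a*, and *Lilrb4a* shared 47.2%, most often with *Gm49339*, which overlaps exons of both, so reads of the pair cannot be divided with certainty. Among the 12180 genes above 1 CPM in *KD1*, *Lilr4b* stood at the 70.3rd percentile and the next member, *Nlrp10*, at the 37.4th. The 250 bases before the *Lilr4b* start (RefSeq, GRCm38.p6, chr10:51480362-51480611, plus strand) are shown because this member has the highest level, with a TATA box (TATAAA) 151 bases before the start and a STAT site (TTCNNNGAA) 104 bases before it in capitals.
*Lilr4b*: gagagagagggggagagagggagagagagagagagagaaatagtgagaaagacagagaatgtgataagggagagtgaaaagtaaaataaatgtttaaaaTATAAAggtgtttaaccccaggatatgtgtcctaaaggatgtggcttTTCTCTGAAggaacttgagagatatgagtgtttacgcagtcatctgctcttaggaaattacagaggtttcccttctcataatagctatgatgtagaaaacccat

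The prolactin family expanded in rodents by tandem duplication, and most of its genes are known from the placenta and the decidua rather than from the mammary gland. There were 3 members on chromosome 13, with 37.2 kb between *Prl8a9* and *Prl7b1* and 191 kb between *Prl7b1* and *Prl2a1*. Other genes of the family lie between them, among them *Prl8a1* in the first gap and *Prl7a1*, *Prl7a2*, *Prl7d1* and *Prl7c1* in the other. *Prl8a9* (27557995 to 27564606) stood at 13.8, 14.1 and 14.1 CPM in *KD1*, at 0.1997, 0.0392 and 0.0955 CPM in *WT* and at 0.0847, 0.0705 and 0.0520 CPM in *KD2*. *Prl2a1* (27801654 to 27808729) stood at 11.29, 10.96 and 12.46 CPM in *KD1*, with 1 count over the *WT* cultures and 2 over the *KD2* cultures. *Prl7b1* (27601819 to 27610582) stood at 2.94, 2.98 and 3.29 CPM in *KD1*, with 1 count in *WT* and 7 in *KD2*. No 50-base window in the exons of these hormones occurred in another gene. The *KD1* level of *Prl8a9* was 133-fold that of *WT* (95% exact counting interval 64.4 to 332) and 200-fold that of *KD2* (85.3 to 616).

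The rest of the prolactin family on chromosome 13 was examined because 3 of its 25 genes were members, a choice made after the values were seen. Of its genes that were not members, 5 could be tested by edgeR. All 5 were called higher in *KD1* than in *WT*, and 4 higher than in *KD2*. Of these, *Prl2c3*, *Prl2c2* and *Prl2c5* lie apart, from 12790816 to 13191923, where the members span 27557995 to 27808729. Only *Prl8a1* and *Prl7d1* were tested within the members' stretch. A call needed an adjusted p under 0.05 together with a log2 fold change beyond 1 in either direction. For comparison, 9.34% of the 15253 genes tested were called higher in *KD1* than in *WT*, and 8.58% higher than in *KD2*. *Prl2c3*, a proliferin, stood at 295, 304 and 294 CPM in *KD1*, at 12.03, 11.53 and 11.98 CPM in *WT* and at 8.22, 9.24 and 7.59 CPM in *KD2*. The fitted log2 fold change came to 4.67 ± 0.07 (SE) against *WT* (adjusted p = 2.1e-14) and 5.27 ± 0.08 against *KD2* (adjusted p = 6.7e-15). *Prl8a1*, 9.32 kb from *Prl8a9*, had 48 counts over the *KD1* cultures, 1 over *WT* and 1 over *KD2*. *Prl8a1* passed edgeR's filter on low counts through *KD1* alone, so a call of lower was hardly possible for it. *Prl7d1* overlapped between lines, at 0.717, 0.226 and 0.823 CPM in *KD1* and 0.349, 0.157 and 0.143 CPM in *WT* (log2 fold change 1.47 ± 0.56, adjusted p = 0.038), and was not called against *KD2* (adjusted p = 0.058). Its call against *WT* was lost with DESeq2 and without *WT* culture 2 or 3 or *KD1* culture 1 or 3, and it was called against *KD2* without a filter on low counts and without *KD1* culture 2 or *KD2* culture 3. *Prl7a1*, also in the cluster, had too few counts to be tested, with 6 over the *KD1* cultures, 11 over *WT* and 27 over *KD2*. The 250 bases before *Prl2a1* (RefSeq, GRCm38.p6, chr13:27801405-27801654, plus strand) are shown because this hormone gene is among the 5 highest members per length, with a STAT site 192 bases before the start in capitals.
*Prl2a1*: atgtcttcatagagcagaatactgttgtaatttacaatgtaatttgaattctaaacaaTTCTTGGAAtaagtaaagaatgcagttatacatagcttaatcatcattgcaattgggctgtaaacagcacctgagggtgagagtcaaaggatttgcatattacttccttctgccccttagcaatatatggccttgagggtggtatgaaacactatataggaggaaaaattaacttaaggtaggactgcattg

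**Figure D2:**
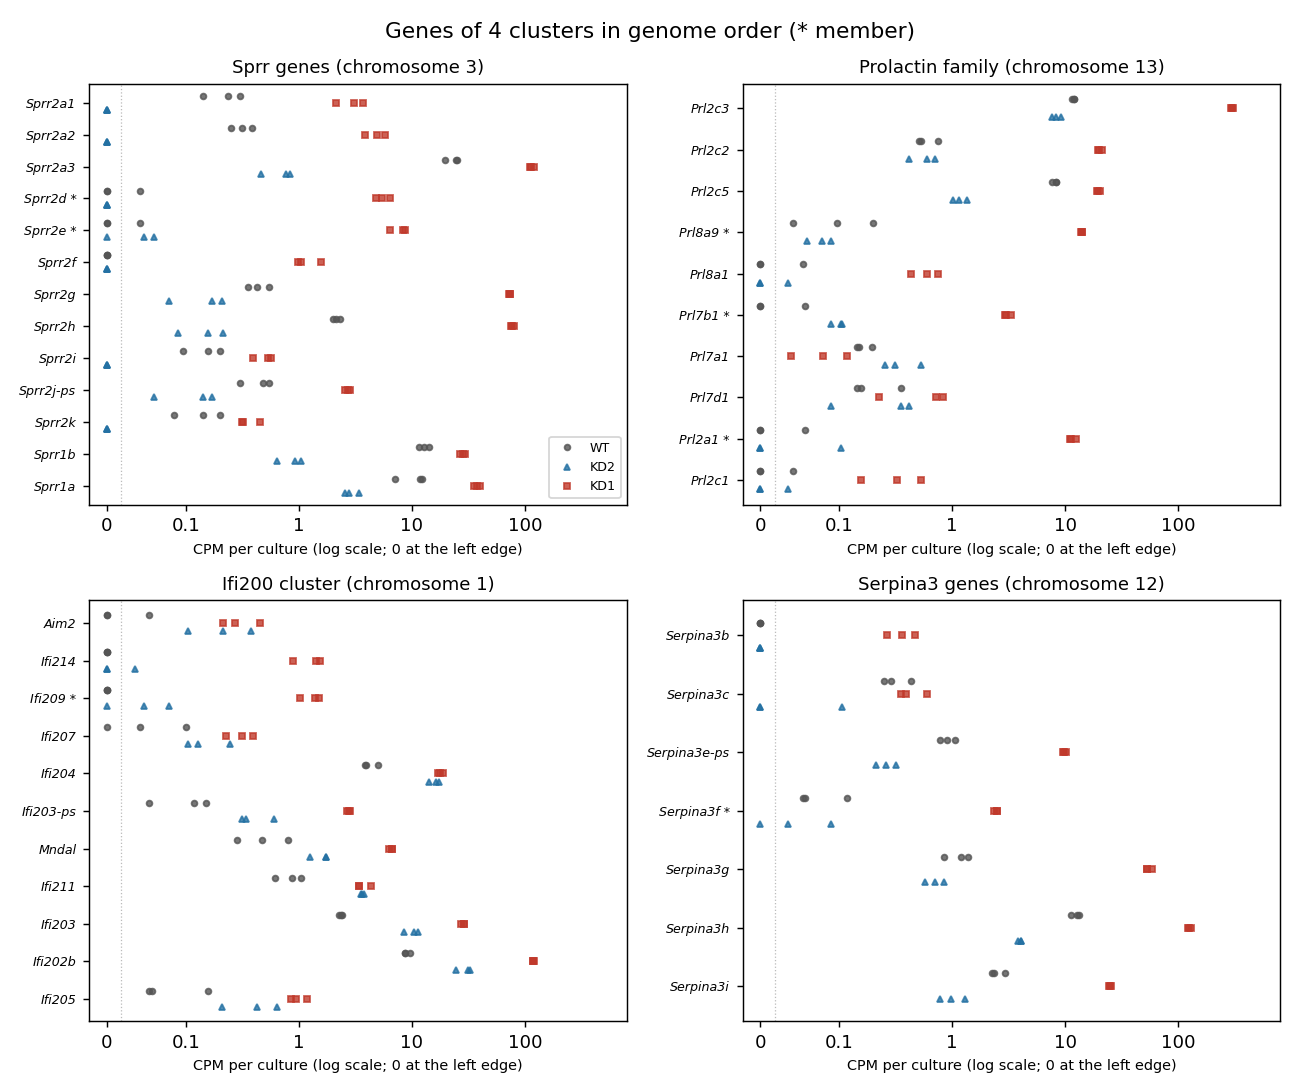
Level in CPM on a log scale of the genes of 4 clusters in genome order, for genes with at least 20 counts over all 9 cultures, with a square for each *KD1* culture, a circle for each *WT* culture and a triangle for each *KD2* culture; members carry an asterisk and values of 0 are drawn at the left edge. In the *Sprr* panel every gene drawn stands higher in *KD1* than in either other line. In the *Ifi200* panel *Ifi204* and *Ifi211* stand close together in *KD1* and *KD2*. *Prl7a1* is the gene of the prolactin panel that stands lower in *KD1* than in both. That panel also draws *Prl2c3*, *Prl2c2* and *Prl2c5*, which lie apart from the members on the chromosome.

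*Sprr2d* and *Sprr2e* encode small proline-rich proteins, which are cross-linked into the cornified envelope of skin cells. *Sprr2d* stood at 4.77, 5.43 and 6.39 CPM in *KD1*, with 1 count over the *WT* cultures and none in *KD2*. *Sprr2e* stood at 8.64, 6.40 and 8.31 CPM in *KD1*, with 1 count over *WT* and 2 over *KD2*. They lie 11.3 kb apart on chromosome 3, *Sprr2d* from 92339140 to 92340873 and *Sprr2e* from 92352143 to 92353449. Another member, *Prr9*, a proline-rich protein of hair and epidermis, lies 215 kb away (92122204 to 92123947) and stood at 1.61, 2.00 and 1.96 CPM in *KD1*, 0.0998 to 0.235 CPM in *WT* and at most 0.0424 CPM in *KD2*. Some windows of *Sprr2e* (10.2%) and *Sprr2d* (4.27%) occur in other *Sprr2* genes, so a part of their reads cannot be placed with certainty.

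Of the 9 *Sprr* genes that were not members and were tested, 9 were called higher in *KD1* against *WT* and 9 against *KD2*. Among them, *Sprr2f*, *Sprr2a1* and *Sprr2a2* passed edgeR's filter on low counts through *KD1* alone, so a call of lower was hardly possible for them. *Sprr2h* stood at 80.4, 76.3 and 75.3 CPM in *KD1*, at 2.15, 2.00 and 2.29 CPM in *WT* and at 0.0847, 0.212 and 0.156 CPM in *KD2* (log2 fold change against *WT* 5.19 ± 0.09 (SE), adjusted p = 3.1e-14). *Sprr2g* stood at 72.0, 74.1 and 73.3 CPM in *KD1* and at 0.353 to 0.549 CPM in *WT*, with a log2 fold change of 7.39 ± 0.13 (adjusted p = 2.9e-14). *Sprr2a3*, at 112, 111 and 120 CPM in *KD1*, was already read at 19.7, 24.5 and 25.3 CPM in *WT* and at 0.466 to 0.832 CPM in *KD2*. *Sprr2a1* and *Sprr2a2* overlap on the genome and had no count in *KD2*, 15 and 21 counts over *WT*, and 238 and 389 over *KD1*. *Sprr2f* had no count in *WT* or *KD2* and missed membership because *KD1* culture 2 stood at 0.980 CPM. *Sprr2j-ps*, a pseudogene, and *Sprr1b* were called higher against *WT* with log2 fold changes of 2.60 ± 0.24 (adjusted p = 4.4e-07) and 1.14 ± 0.09 (adjusted p = 1.5e-07).

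The promoters of *Sprr2d* (chr3:92338890-92339139) and *Sprr2e* (chr3:92351893-92352142), both on the plus strand of GRCm38.p6, are shown because these genes are neighbours of 1 family that both met the rule. Over their 250 bases, 225 of 248 aligned bases were identical, with 4 gaps (89.3% of all alignment columns). Both hold a TATA box 29 bases before the start and an AP-1 site (TGANTCA) 193 bases before it, in capitals.
*Sprr2d*: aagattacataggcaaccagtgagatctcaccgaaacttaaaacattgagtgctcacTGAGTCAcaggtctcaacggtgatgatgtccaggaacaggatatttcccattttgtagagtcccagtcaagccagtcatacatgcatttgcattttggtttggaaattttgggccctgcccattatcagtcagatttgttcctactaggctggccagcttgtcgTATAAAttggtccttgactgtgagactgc
*Sprr2e*: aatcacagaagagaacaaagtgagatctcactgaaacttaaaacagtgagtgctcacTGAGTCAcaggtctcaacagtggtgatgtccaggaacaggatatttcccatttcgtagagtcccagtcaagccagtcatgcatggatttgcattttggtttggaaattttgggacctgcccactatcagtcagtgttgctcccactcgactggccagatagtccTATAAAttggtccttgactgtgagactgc

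Other members known from skin and surface epithelium were *Tmigd1*, *Fa2h* and *Tmprss11b*. *Tmigd1*, an immunoglobulin-domain protein of kidney and gut epithelium, stood at 4.70, 4.22 and 4.78 CPM in *KD1*, with no count in *WT* and 1 in *KD2*. *Fa2h*, which hydroxylates the fatty acids of skin and myelin sphingolipids, stood at 3.87, 3.32 and 3.80 CPM in *KD1* and at most 0.2496 CPM in *WT*. *Tmprss11b*, a membrane serine protease of squamous epithelium, stood at 1.36, 1.36 and 1.53 CPM in *KD1*. Its neighbour *Tmprss11e* was not a member, because its means of 0.283 CPM in *WT* and 0.404 CPM in *KD2* were over the limit, and stood at 27.1, 28.3 and 25.9 CPM in *KD1* (log2 fold change against *WT* 6.56 ± 0.15 (SE), adjusted p = 1.5e-13).

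Among the cytokines, *Il1f6* and *Il1f9* encode interleukin-36 alpha and gamma, which are made by keratinocytes and act on epithelium and immune cells. *Il1f6* (chromosome 2, 24215418 to 24225702) stood at 8.10, 6.86 and 8.11 CPM in *KD1*, with 1 count in *WT* and none in *KD2*. *Il1f9* (24186476 to 24193568), 21.9 kb away, stood at 4.23, 3.77 and 4.43 CPM in *KD1* with no count in any other culture, which makes it at least 91.7-fold higher than *WT* and at least 98.2-fold higher than *KD2*, each against a floor of 3 counts over the group. Of 3 other interleukin-1 family genes of chromosome 2 that were tested, 3 were called higher against both lines. One of them, *Il1b*, with 116 counts over *KD1*, 13 over *WT* and 21 over *KD2*, passed edgeR's filter on low counts through *KD1* alone. *Il1a*, on the same chromosome but outside this cluster, stood at 1000, 1010 and 981 CPM in *KD1*, at 16.7, 10.4 and 11.1 CPM in *WT* and at 4.32, 5.11 and 4.68 CPM in *KD2* (log2 fold change 6.32 ± 0.14 (SE) against *WT*, adjusted p = 1.5e-13). *Il1rn*, the receptor antagonist, was called with a smaller log2 fold change of 1.73 ± 0.10 against *WT* (adjusted p = 2.3e-09). The promoter of *Il1f9* (chr2:24186226-24186475, plus strand, GRCm38.p6) is shown because this member is empty outside *KD1*, with a STAT site 128 bases and a GATA site (AGATAA, on either strand) 30 bases before the start in capitals.
*Il1f9*: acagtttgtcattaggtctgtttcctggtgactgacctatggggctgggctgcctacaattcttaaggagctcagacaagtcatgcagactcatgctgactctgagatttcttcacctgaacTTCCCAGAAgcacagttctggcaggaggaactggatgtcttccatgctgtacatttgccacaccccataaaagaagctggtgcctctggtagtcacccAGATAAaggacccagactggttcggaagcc

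*Ppbp*, the precursor of a chemokine known from platelets, stood at 5.74, 5.54 and 6.58 CPM in *KD1*, at 0.150, 0.157 and 0.286 CPM in *WT* and at 0.254, 0.282 and 0.0520 CPM in *KD2*. It was just inside the limit, with means of 0.198 CPM in *WT* and 0.196 CPM in *KD2*. Both of its tested chemokine neighbours on chromosome 5 were higher in *KD1*. *Cxcl5*, a neutrophil chemokine 6.89 kb away, stood at 609, 632 and 586 CPM in *KD1*, 15.4, 11.2 and 14.1 CPM in *WT* and 40.8, 39.1 and 40.1 CPM in *KD2* (log2 fold change 5.51 ± 0.10 (SE) against *WT*, adjusted p = 3.1e-14). *Cxcl3* stood at 49.3, 53.8 and 49.3 CPM in *KD1* and at 0.430 to 0.510 CPM in *WT* (log2 fold change 6.77 ± 0.13, adjusted p = 6.3e-14). Its log2 fold change against *KD2* was smaller, at 3.66, so *KD2* lay between *WT* and *KD1*. The cytokine-related member *Il31ra*, a receptor subunit for interleukin-31, stood at 1.11, 1.24 and 1.22 CPM in *KD1*. The *Ppbp* promoter (chr5:90768268-90768517, plus strand, GRCm38.p6) is shown beside those of the *Sprr2* pair because it also holds an AP-1 site, 204 bases before the start, and a TATA box, 30 and again 8 bases before the start.
*Ppbp*: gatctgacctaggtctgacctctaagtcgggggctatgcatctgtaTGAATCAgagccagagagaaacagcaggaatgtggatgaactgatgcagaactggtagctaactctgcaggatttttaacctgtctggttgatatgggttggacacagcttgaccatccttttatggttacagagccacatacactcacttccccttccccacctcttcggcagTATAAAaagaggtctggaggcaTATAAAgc

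*Nlrp10*, a cytosolic NOD-like receptor that lacks leucine-rich repeats, stood at 22.4, 21.2 and 20.6 CPM in *KD1*, at 0.150, 0.0784 and 0.191 CPM in *WT* and at 0, 0.247 and 0.104 CPM in *KD2*. *Ifi209* belongs to the *Ifi200* cluster of interferon-induced DNA sensors on chromosome 1 and stood at 1.40, 1.51 and 1.02 CPM in *KD1*, with no count in *WT* and 3 in *KD2*. Of its windows, 33.7% occur elsewhere, most often in *Ifi214*. The pseudogene *Gm7897* (173829799 to 173832254) lies 182 kb from *Ifi209* within the same region and stood at 16.7, 16.8 and 18.8 CPM in *KD1*, with 1 count in *WT* and 2 in *KD2*. No window of *Gm7897* occurred in another gene. These members lie 1.602 and 1.801 Mb from the edited gene *Vangl2* on the same chromosome. Of 8 *Ifi200* genes that were tested and were not members, 8 were called higher in *KD1* against *WT* and 6 against *KD2*. *Mndal* stood at 6.70, 6.29 and 6.66 CPM in *KD1*, 0.286 to 0.799 CPM in *WT* and 1.25 to 1.74 CPM in *KD2*. *Ifi203* stood at 29.1, 27.2 and 29.0 CPM in *KD1*, 2.27 to 2.39 CPM in *WT* and 8.42 to 11.2 CPM in *KD2*. For *Ifi204* and *Ifi211*, *KD1* was not called against *KD2*, with log2 differences of 0.28 ± 0.10 (adjusted p = 0.025) and 0.16 ± 0.16 (adjusted p = 0.39).

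There were 3 members in the T cell receptor alpha and delta locus on chromosome 14, whose segments are joined and expressed in T cells. *Trdc*, a constant segment, stood at 3.23, 3.77 and 3.53 CPM in *KD1*, 0 to 0.0784 CPM in *WT* and 0.0520 to 0.169 CPM in *KD2*. *Trac* stood at 1.36, 1.36 and 1.41 CPM, and the variable segment *Trdv4* at 1.25, 1.13 and 1.06 CPM. Of 200 genes annotated in this locus, 172 had no count in any culture. The T cell marker *Cd3e* had 3, 1 and 0 counts in *KD1*. *Trdc* overlaps *Trdv5* on the opposite strand over 207 bases of exon. *Skint7* belongs to a butyrophilin-like family of thymus and skin epithelium and stood at 5.45, 4.22 and 4.51 CPM in *KD1*, with 2 counts in *WT* and 1 in *KD2*. Its neighbour *Skint1*, 18.0 kb away, is known for the selection of epidermal gamma delta T cells. *Skint1* had 65 counts over the *KD1* cultures, none in *WT* and 1 in *KD2*, and passed edgeR's filter on low counts through *KD1* alone. Of 2 tested *Skint* genes that were not members, 1, *Skint1*, was called higher against both lines. *Skint8*, on the other side of *Skint7*, was not called by edgeR against either. Its log2 fold change was 1.09 ± 0.46 (SE) against *WT* (adjusted p = 0.058) and 0.78 ± 0.43 against *KD2* (adjusted p = 0.12). It was called against *WT* in 3 alternative settings and against *KD2* without *KD1* culture 2.

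The kinases were *Ptk6*, *Flt3* and *Mst1r*. *Ptk6*, a soluble tyrosine kinase of differentiating epithelium that was first found in breast tumours, stood at 6.70, 6.37 and 7.05 CPM in *KD1*, with 1 count in *WT* and 6 in *KD2*. *Flt3*, the receptor tyrosine kinase of early blood progenitors, stood at 5.63, 6.29 and 5.53 CPM in *KD1*, 0 to 0.157 CPM in *WT* and 0.0353 to 0.0520 CPM in *KD2*. Of the G protein-coupled receptors, *Grm8*, a glutamate receptor of neurons, stood at 2.08, 1.88 and 1.92 CPM, and *Cysltr2*, a receptor for cysteinyl leukotrienes, at 1.36, 1.73 and 1.29 CPM. *Adcy4*, an adenylyl cyclase, stood at 1.36, 1.09 and 1.69 CPM, which put it among the 3 members closest to the *KD1* limit with *Ifi209* and *Trdv4*.

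Among transporters, *Slc28a3*, a sodium-coupled nucleoside carrier, stood at 16.0, 15.5 and 16.5 CPM in *KD1*, with 3 counts in *WT* and 2 in *KD2*. *Slc5a4b*, of the sodium-glucose carrier family, stood at 5.99, 5.99 and 7.25 CPM, with no count in *WT* and 2 in *KD2*. *Gsta1* and *Gsta2* encode alpha-class glutathione transferases, which detoxify reactive compounds, and lie 88.3 kb apart on chromosome 9. *Gsta1* stood at 1.29, 1.54 and 1.69 CPM and *Gsta2* at 1.72, 1.70 and 1.61 CPM in *KD1*. However, 90.5% of the windows of *Gsta1* and 49.8% of those of *Gsta2* occur in other genes, so that neither level can be assigned to 1 gene with certainty. The other gene of this locus, *Gsta4*, was not a member and was called higher in *KD1* than in *WT*, with a log2 fold change of 1.58 ± 0.10 (SE) (adjusted p = 5.5e-09). It was not called against *KD2*, with a log2 difference of -0.05 ± 0.09 (adjusted p = 0.60).

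Of the protease group, *Serpina3f* and *Serpinb9e* encode serine protease inhibitors, and the products of *Serpinb9* genes are known to block granzyme B. *Serpina3f* stood at 2.33, 2.49 and 2.47 CPM in *KD1* and *Serpinb9e* at 1.76, 1.66 and 1.88 CPM. *Serpina3g*, beside *Serpina3f* on chromosome 12, stood at 52.6, 58.2 and 52.9 CPM in *KD1*, 0.849 to 1.37 CPM in *WT* and 0.572 to 0.847 CPM in *KD2* (log2 fold change 5.57 ± 0.13 (SE) against *WT*, adjusted p = 2.0e-13). Of 5 tested *Serpina3* genes that were not members, 4 were called higher against *WT* and 5 against *KD2*. These genes share windows with *Serpina3f* (10.6% of its windows), and *Serpinb9e* shares 28.4% of its own, most often with *Serpinb9f*. *Adam19*, a membrane metalloprotease, stood at 2.47, 3.88 and 3.17 CPM in *KD1* and was near the *KD2* limit with a mean of 0.197 CPM.

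*Rab38*, a small GTPase that carries cargo to lysosome-related organelles such as melanosomes, stood at 8.60, 8.10 and 8.58 CPM in *KD1*, 0.118 to 0.1997 CPM in *WT* and at most 0.0424 CPM in *KD2*. *Tuba8*, an alpha-tubulin isotype, stood at 5.66, 6.40 and 6.23 CPM. *Lancl3*, of the LanC-like family and the only member on the X chromosome, stood at 6.78, 7.01 and 7.37 CPM, with 5 counts in *WT* and none in *KD2*. *Pla2r1*, a lectin-like receptor of secreted phospholipases, stood at 3.98, 3.92 and 4.43 CPM. Exons of *Tuba8*, *Lancl3*, *Pla2r1* and *Slc28a3* each overlap those of another gene on the opposite strand, and since the sources used here do not state whether the counting used strand, such pairs cannot be told apart. The 8 members that no part of the naming rule picked out were *Otol1*, *Foxa1*, *Mst1r*, *Tafa1*, *Bcl2l14*, *Kctd4*, *Rapgef3os2* and *Creb3l3*, with *KD1* means between 1.25 and 3.15 CPM. Of these, *Foxa1* encodes a pioneer transcription factor of luminal mammary cells and stood at 2.98, 3.13 and 2.98 CPM in *KD1* and at 0.150, 0.314 and 0.0477 CPM in *WT*.

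There were 10 non-coding loci and pseudogenes, with *KD1* means from 1.18 to 17.4 CPM. After *Gm7897*, the highest were *Gm49083* at 3.44, 3.81 and 3.96 CPM and *Gm44613* at 3.047, 3.202 and 3.449 CPM. *Gm44613* is antisense to *Ceacam12*, with 186 bases of exon in common, and *Ceacam12* had no count in *WT* or *KD2* and stood at 1.04, 1.05 and 0.823 CPM in *KD1*. *Gm49083* shared 57.6% of its windows with other loci. *Gm6637*, *Gm48874*, *5430427N15Rik*, *4930545L23Rik*, *Gm42635* and *Gm15675* had means of 3.03, 1.90, 1.70, 1.68, 1.67 and 1.18 CPM. *Gm42635* sat on the *WT* limit with a mean of 0.1999 CPM. Of all 54 members, 41 (75.9%) were protein-coding, against 91.0% of the genes above 1 CPM in *KD1* and 90.3% of the 72 genes on in *KD2* only by the mirrored rule.

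On the limits, *Ifi209*, *Trdv4* and *Adcy4* were just inside for *KD1*, with lowest cultures of 1.02, 1.06 and 1.09 CPM, while *Sprr2f*, *Scgb2b27* and *Npsr1* were just outside with 0.980, 0.980 and 0.942 CPM. *Aknad1*, *Slc17a6* and *Sprr2a1* were left out by *WT* means of 0.221, 0.223 and 0.226 CPM. *Ces1a*, *Clec4d* and *Serpinb1c* were left out by *KD2* means of 0.2004, 0.214 and 0.217 CPM. In all, 107 genes were on in *KD1* and off in *WT*, of which 54 were off in *KD2*, 11 were on in all *KD2* cultures and 42 lay between the limits. With the limits applied to 2 *KD1* cultures only, leaving out culture 1, 2 or 3 in turn, 60, 59 and 58 genes were chosen. Each of these sets holds the 54 members by the rule itself, so the culture left out is no check of the list. Of the others, *Gm5561* stood at 1.18 and 2.30 CPM in *KD1* cultures 1 and 2 and at 0.0392 CPM in culture 3.

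Since longer genes collect more reads, levels of different genes were compared as CPM per kilobase of exon. On this scale the members had a median of 1.43 in *KD1*, against 8.14 for genes above 1 CPM there, and 48 of 54 lay under that median. *Gm7897* came first at 31.5 CPM per kilobase, followed by *Prl8a9* at 14.9, *Lilr4b* at 14.2, *Prl2a1* at 13.1 and *Sprr2e* at 12.03. *Slc28a3* stood at 2.02 CPM per kilobase and *Nlrp10* at 4.75. The members' exons were shorter, with a median of 2722 bases against 4347 for genes above 1 CPM in *KD1* and 3599 for the genes on in *KD2* only. The SD over the *KD1* cultures was 1.39% to 26.7% of the mean, with a median of 7.42%.

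**Figure D3:**
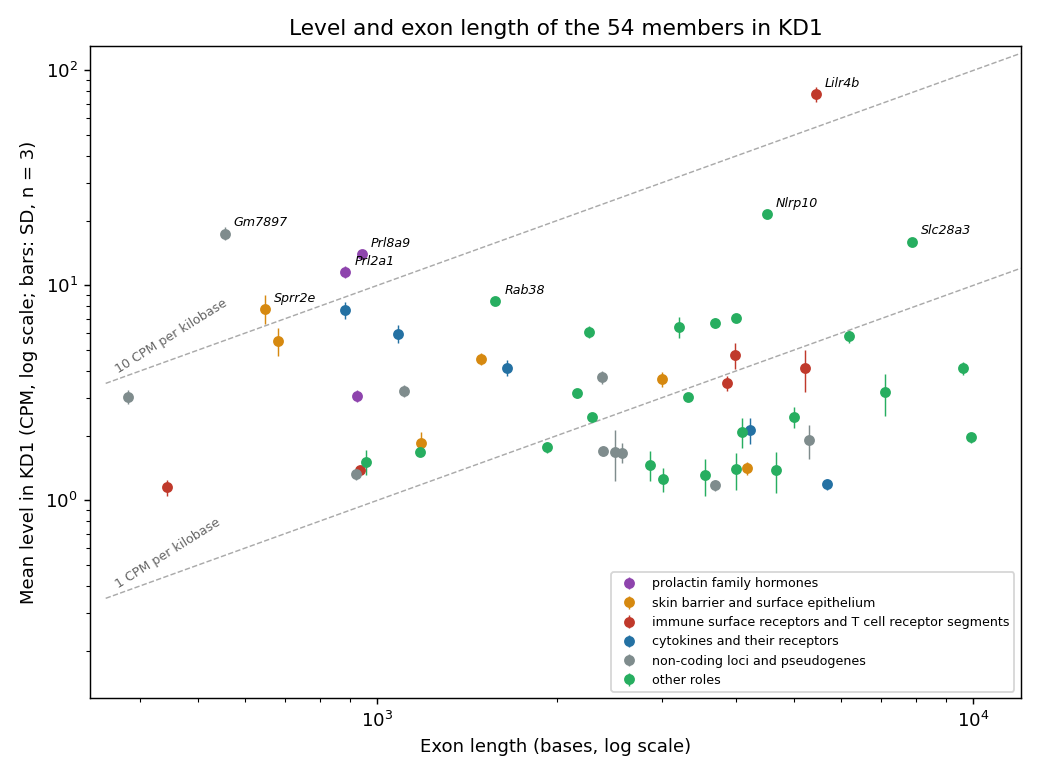
Mean *KD1* level of each of the 54 members in CPM (log scale, bars are the SD of 3 cultures) against exon length in bases (log scale), coloured by role, with dashed lines at 1 and 10 CPM per kilobase of exon. *Gm7897* lies highest above the lines for its length at 31.5 CPM per kilobase, while *Slc28a3* lies near the lower line at 2.02.

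Members lay in groups along the genome. Of the 54, 17 (31.5%) had another member within 500 kb, in the prolactin, interleukin-1, *Sprr*, *Lilr4b*, glutathione transferase, T cell receptor and *Ifi200* regions described above, and 14 of the 72 genes on in *KD2* only (19.4%) had another of their own set as near. This difference in share was not tested. Chromosome 14 held 7 members and chromosome 13 held 6, that is 12.96% and 11.1% of members where 3.33% and 3.85% of genes above 1 CPM in *KD1* lie.

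To see whether the regions around the members changed, the tested genes within 100 kb of a member that are not members themselves were counted. The rule did not use their values, but edgeR's filter on low counts did, and neighbours with too few counts in every line were not tested. Some of those tested, such as *Prl8a1* and *Skint1*, passed the filter through *KD1* alone. For them a call of lower was hardly possible, so the shares below are not independent of the level in *KD1*. How many of the tested neighbours passed in this way was not counted. Of 127 such neighbours, 62 (48.8%) were called higher in *KD1* than in *WT* and 6 (4.72%) lower, where 9.34% and 7.49% of all tested genes were. Against *KD2*, 53 of the neighbours (41.7%) were called higher in *KD1* and 6 lower, where 8.58% and 14.7% of all tested genes were. In *KD2* against *WT*, which shares the *WT* cultures, 21 of the same neighbours (16.5%) were called higher, where 14.5% of all tested genes were. A further 22 neighbours (17.3%) were called lower in that comparison. The share of all tested genes called lower in *KD2* was not counted, so the 22 are a description only. Of the 47 members with a tested neighbour, 30 had at least 1 called higher against *WT*. The same share over all genes on in *KD1* was not counted, so the 30 are a description only. Within 50 kb the share was 40 of 77 (51.9%), and within 500 kb it was 109 of 472 (23.1%).

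Overlap, shared sequence and gene families move with this share. Without neighbours that overlap a member's exons or share a 50-base window with it, 53 of 115 (46.1%) were called higher against *WT*. Without the genes of the 11 cluster lists, 38 of 101 (37.6%) were, a list made after the data were seen. Around the 72 genes on in *KD2* only, 54 of 229 neighbours (23.6%) were called higher in *KD2* against *WT*, where 14.5% of all tested genes were. The part of overlap and family in the neighbours' share was not tested further.

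**Figure D4:**
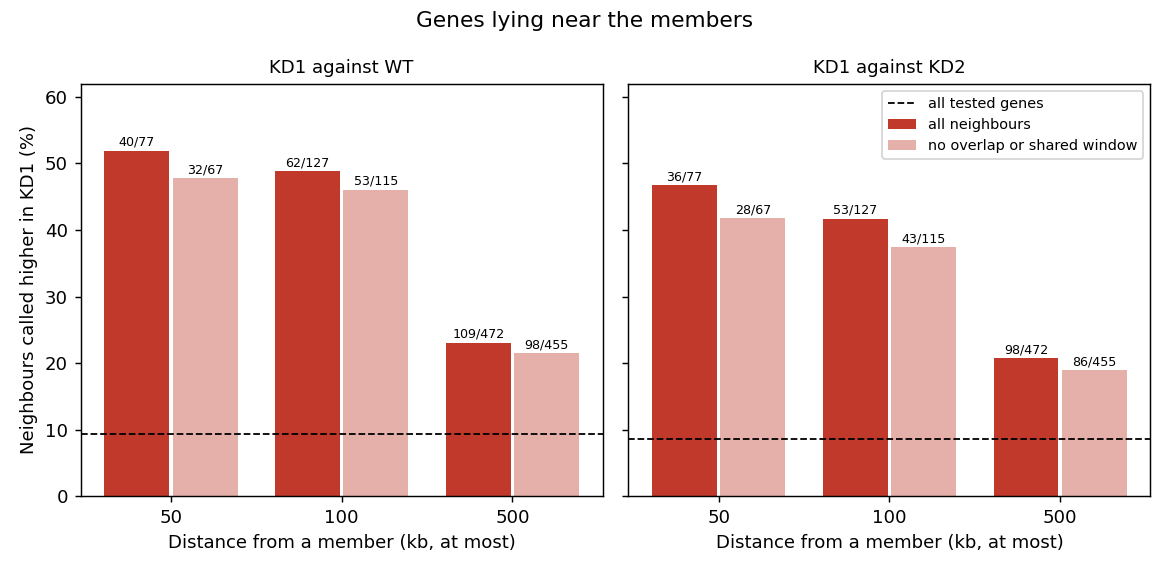
Share of tested genes within 50, 100 or 500 kb of a member that were called higher in *KD1* against *WT* (left) and against *KD2* (right), in percent, for all neighbours and for those with no exon overlap and no window shared with a member; counts stand over the bars and the dashed line is the share of all tested genes. The bars stand above the dashed line of 9.34% or 8.58% at every distance and are lowest at 500 kb.

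Around the 25 highest members, 50 neighbours were tested, of which 26 were called higher and 3 lower than in *WT*. *Mill1*, an MHC class I-like gene 58.4 kb from *Gm44613* on chromosome 7, stood at 122, 119 and 119 CPM in *KD1*, 1.75, 2.16 and 1.58 CPM in *WT* and 1.44, 1.30 and 1.82 CPM in *KD2* (log2 fold change 6.03 ± 0.10 (SE) against *WT*, adjusted p = 2.7e-14). *Itgb6*, an epithelial integrin chain 45.0 kb from *Pla2r1*, stood at 26.6, 27.1 and 26.5 CPM in *KD1*, 6.68 to 7.96 CPM in *WT* and 4.68 to 4.87 CPM in *KD2* (1.87 ± 0.08, adjusted p = 2.1e-10). *Ly75*, an endocytic receptor of dendritic cells also near *Pla2r1*, was called against *WT* (1.66 ± 0.07, adjusted p = 1.3e-10) and stood at 40.0 to 45.9 CPM in *KD2* against 54.1 to 55.1 CPM in *KD1*. *Helz2* near *Ptk6*, *Mlkl* near *Fa2h*, *Prmt2* near *Slc5a4b* and *Gm6526* near *Gm49083* were called higher against *WT* and not called against *KD2*. *D5Ertd605e* near *Flt3* was higher in *KD1* than in *WT* and lower than in *KD2*. *Slc5a9* near *Skint7*, *Gm43461* near *Flt3* and *Xk* near *Lancl3* were called lower in *KD1* than in *WT*. *Xk* lies 4.67 kb from *Lancl3* and stood at 0.0377 to 0.118 CPM in *KD1*, 0.449 to 0.573 CPM in *WT* and 0 in *KD2*.

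Promoter sequence, from 250 bases before to 50 after the RefSeq start in GRCm38.p6, was found for 35 members. CpG dinucleotides had a median observed to expected ratio of 0.263 against 0.780 over 9169 promoters of genes above 1 CPM in *KD1* and 0.339 over 42 promoters of genes on in *KD2* only. A ratio above 0.6 was found for 5 of the 35 (14.3%), against 75.0% and 28.6% in those sets. The median GC content was 46.7%, against 61.3% and 54.2%. All 27025 promoters together lay nearer to the members, with a median ratio of 0.389, 36.4% above 0.6 and a median GC content of 52.7%. As a description, an AP-1 site was found in 9 of the 35 (25.7%) and in 7.93% of all 27025 promoters, a TATA box in 9 (25.7%) and 14.2%, and a STAT site in 7 of the 35 and in 8.47%. An E-box (CANNTG) was found in 80.0% and 72.1%, a GATA site in 14.3% and 11.4%, a TEAD site (GGAATG) in 22.9% and 14.6%, a SOX site (ACAAAG) in 25.7% and 18.7%, a GC box (GGGCGG) in 17.1% and 35.9%, and the interferon response pair in 2.86% and 3.49%. Among the 42 promoters of genes on in *KD2* only, an AP-1 site was found in 16.7%, a TATA box in 11.9% and a STAT site in 4.76%. The members' AP-1 and TATA counts both include *Sprr2d* and *Sprr2e*, whose promoters are 89.3% identical. Some TATA boxes lie far from the start, as in *Gsta2* at 246 bases before it. Motifs were searched on both strands, may overlap each other and are letters rather than shown binding sites.

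**Figure D5:**
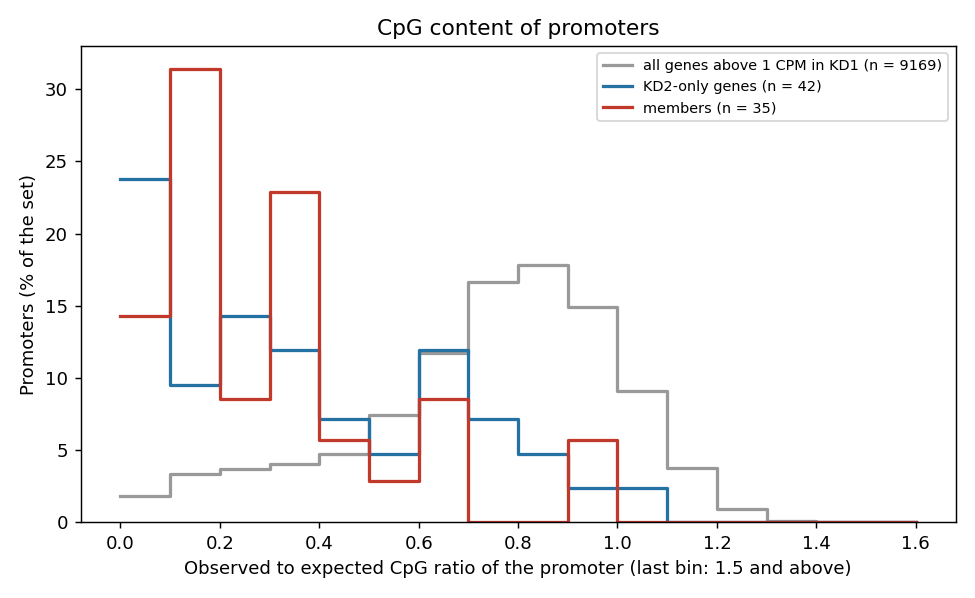
Distribution of the observed to expected CpG ratio of promoters, in bins of 0.1 on the x axis and percent of each set on the y axis, for 35 members, 42 genes on in *KD2* only and 9169 genes above 1 CPM in *KD1*. The members lie mostly to the left with a median of 0.263, and genes above 1 CPM in *KD1* mostly to the right with a median of 0.780.

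Set against 23 gene families defined by symbol, members fell in 12. Over all genes, 54 of 55228 were members. The predicted genes, RIKEN clones and clone-named loci held the most, 9 of 32349 genes. Of 374 protease and inhibitor genes in the table, 4 were members (*Tmprss11b*, *Adam19*, *Serpina3f*, *Serpinb9e*). Of 244 growth factor and receptor genes, 4 were (*Flt3* and the prolactins), and of 206 cytokine and chemokine genes, 3 were (*Il1f9*, *Il1f6*, *Il31ra*). This symbol list does not hold *Ppbp* and *Tafa1*, with which the members known as cytokines or their receptors number 5. Leaving out members, 38 of 96 tested cytokine and chemokine genes were called higher in *KD1* than in *WT* and 15 lower, and 47 of 138 protease genes were higher and 19 lower, where 9.34% of all tested genes were higher. In the keratin and cornified envelope family 14 of 42 were higher and 5 lower, and among interferon-induced genes, with *Ifi209* as the only member, 52 of 83 were higher and 1 lower. In the growth factor family 19 of 120 were higher and 30 lower. The homeobox, zinc finger, nuclear receptor, germline, ion channel, chemosensory, cadherin, matrix, guidance, muscle and histone families held no member. By the mirrored rule, 0 genes of the cytokine and of the cornified envelope family were on in *KD2* only, beside 5 interferon-induced genes and 5 G protein-coupled receptors, and these counts were not tested against each other.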

How the data were processed

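RNA-seq counts from 9 cultures, 3 each of *WT*, *KD1* and *KD2*, were used. Lines and replicate numbers were taken from the sample labels. The values deposited by the authors are raw counts for each gene. Per the labels and the study's methods, the authors trimmed reads with fastp (average quality of at least 20), aligned with HISAT2 to GRCm38, and used featureCounts (Subread) for counting. Strand use and the handling of multiply mapped reads are not given in the sources used here. The members and gene lists were chosen with earlier results of these data known, and the lists of roles and gene clusters were made after the members had been seen.

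CPM was computed here from raw counts and column totals. Positions and exons came from GENCODE M21 (GRCm38), matched to 53569 symbols directly and to 139 through another symbol, and promoters from RefSeq. Folds of members compare summed counts divided by summed library totals, with a 95% conditional exact interval, or with a floor of 3 counts over the group where a group had none. Genes outside the rule were tested with edgeR 4.0.16 (R 4.3.3) by quasi-likelihood, with TMM scaling, its expression filter, 1 fit of all 9 cultures and Benjamini-Hochberg adjustment over 15253 genes. The threshold was an adjusted p of 0.05 with a log2 fold change beyond 1 either way. The SE was derived from the fold change and F statistic. All 54 members passed the filter, through *KD1* alone. Some genes outside the rule also passed it through *KD1* alone and could hardly be called lower, and their number was not counted. On simulated data, with the same spread set for all genes and lines, the procedure was tested before use. Named members were the 25 highest by *KD1* mean, those in a family with 2 or more members, those within 500 kb of another member and those nearest the limits; named neighbours lay within 100 kb of the 25 and were called. Alternatives were DESeq2 1.42.0, other scalings and filters, a replicate block, the 6 cultures compared, other limits and distances, and leaving out each culture. The study speaks of biological replicates, and the labels do not say how the cultures of a line were derived. The p-values therefore measure the spread between these cultures, which may be technical. That spread was unequal between lines. Chi-square per degree of freedom between 2 cultures was 1.37 to 1.81 in *KD1*. In *WT* it was 3.38 for cultures 2 and 3, and 10.7 and 13.1 for the pairs with culture 1. In *KD2* it was 1.74 for cultures 1 and 2, and 17.4 and 22.1 for the pairs with culture 3.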

Additional observations from a re-analysis of the deposited data

Results flagged for a closer look

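The genes named below lie within 100 kb of a member or in the same cluster, were not chosen by the rule, and differed between the *KD1* and *KD2* effects against *WT*. Both effects share the *WT* cultures, so the difference tested by edgeR is *KD1* against *KD2* itself, given here as a log2 fold change. In the *Sprr* cluster it was 5.15 for *Sprr1b*, 7.49 for *Sprr2a3*, 9.09 for *Sprr2g*, 9.04 for *Sprr2h* and 4.49 for *Sprr2j-ps*. *Sprr2a2* (9.93), *Sprr2f* (7.90), *Ceacam12* (7.61) and *Xk* (4.00) had no count in *KD2*, so their fitted values depend on the prior count and are no bound. Among immune genes it was 4.05 for *Cxcl5*, 3.66 for *Cxcl3*, 6.45 for *Mill1*, 5.52 for *Skint1*, 1.62 for *Ifi203*, 2.79 for *Ifi203-ps* and 2.16 for *Mndal*. It was 5.08 for *Prl8a1* and 2.60 for *Itgb6*. It was negative, with *KD1* lower, for *D5Ertd605e* (-1.19), *Gm43461* (-1.38, not called without *KD1* culture 3) and *Slc5a9* (-1.37).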

How the results depend on the processing

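The number of members, 54, followed the limits. It was 103 with *KD1* above 0.5 CPM, 32 with *KD1* above 2 CPM, 30 with *WT* and *KD2* under 0.1 CPM and 127 with them under 0.5 CPM. It was 53 to 60 when each culture was left out in turn. Restricted to genes without exon overlap or a shared window, an alternative chosen after seeing the data, it was 22. With at least 10 counts in every culture, which tests fewer genes, 766 genes were called higher and 553 lower in *KD1* against *WT*, 733 higher and 1181 lower against *KD2*, and 30 neighbours higher. Without a filter on low counts, 1906 genes were called higher and 1424 lower in *KD1* against *WT*. In that setting 1801 were called higher and 3138 lower against *KD2*, and 83 neighbours higher against *WT*. Called neighbours numbered 40 within 50 kb and 109 within 500 kb, and 38 outside the cluster lists, the last an alternative chosen after seeing the data. Leaving out each culture gave 1414 to 1545 genes higher and 1112 to 1173 lower against *WT*, 1326 to 1391 higher and 2302 to 2412 lower against *KD2*, and 61 to 64 neighbours. *Prl7d1* was no longer called against *WT* with DESeq2 or without *WT* culture 2 or 3 or *KD1* culture 1 or 3 (log2 fold change 1.18 to 1.49), and was called against *KD2* in 3 settings (1.21 to 1.56). Calls were also lost for *Mlkl* without *WT* culture 1 (0.96), for *Gm43461* without *WT* culture 3 (-1.09) or *KD1* culture 3 (-1.04) and against *KD2* without *KD1* culture 3 (-1.01), and for *D5Ertd605e* against *KD2* without *KD2* culture 2 (-0.93). Scaling by library size alone moved the median log2 fold change of *KD1* against *KD2* by -0.125.

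Under a replicate block, calls against *WT* numbered 1424 higher and 1136 lower in *KD1*, with 1311 higher and 2241 lower against *KD2*, and 62 neighbours higher. The numbers share no stated source, same-numbered cultures correlated at -0.0747 to 0.111, and 0 of 9 cultures matched best with their own number in both other lines.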
